A study of Mus musculus with 2 samples.

Results

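Collagen VI is the beaded-filament collagen of the cell surface and interstitial matrix, and its 6 chain genes, Col6a1 to Col6a6, were followed here through the mouse endometrium on day 3 of pregnancy. The 6 were chosen by symbol from 19070 genes in the count matrices. The reason was that Col6a4 had the highest ratio between the genotypes in stromal cells in earlier results of these data. Here that rank held among genes with at least 100 UMIs in stroma, and not among those with at least 20. Because of that choice, the values for Col6a4 in stroma are a description and support nothing. All 6 symbols matched a single row in both libraries.

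The chains form heterotrimers. The α1 and α2 chains, made from Col6a1 and Col6a2, are joined by a further chain, classically α3 from Col6a3, and the trimers are stacked into tetramers inside the cell before they leave it and assemble end to end into microfilaments. Col6a4, Col6a5 and Col6a6 encode long chains that resemble α3 and can take its place in the trimer. Collagen VI is made mainly by fibroblasts and related mesenchymal cells, and it anchors basement membranes to the fibrillar matrix.

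The study compared single-cell transcriptomes of endometrium from Erbb3 f/f females, the control, with those from Erbb3 d/d females, in which Erbb3, a receptor of the ErbB family, was deleted in the stroma. Tissue was collected at 9 AM on day 3 of pregnancy, fixed before it was dissociated, and measured as unique molecular identifiers (UMIs), each standing for 1 captured molecule. The labels describe the probe-based Flex workflow of 10x Genomics but also name a library kit of the 10x 3′ assay, so statements here that rest on probes hold only if Flex was used. The sources used here do not give the Cre line, the age or strain of the animals, or how many animals went into a library. There was 1 library per genotype, so no difference between the genotypes can be tested, the spread between animals is unknown, and all intervals below are 95% intervals that cover counting error only.

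The Erbb3 f/f library held 5783 barcodes and 6819591 UMIs, and the Erbb3 d/d library held 2125 barcodes and 2866862 UMIs. Removal of barcodes with more than 10% mitochondrial UMIs left 5503 and 1830 cells with medians of 809 and 764.5 UMIs. No barcode was shared in full, and 158 shared their first 16 bases. Erbb3 itself gave 7 UMIs in stroma-gated f/f cells and 1 UMI in stroma-gated d/d cells (10.5 and 8.15 counts per 1e+06 UMIs of the class, CPM), so its stromal deletion was not detectable at this depth, and where its probes lie relative to the deleted part is not given. In epithelium-gated cells Erbb3 gave 169 and 33 UMIs, or 77.9 and 48.4 CPM.

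Cells were gated on panels of marker genes that held no collagen. The stromal gate took 613 f/f cells (11.1% of cells) and 127 d/d cells (6.94%). The summed stromal panel was at 4306 and 4166 CPM there, against 229 and 226 in the epithelium gate. Of the 10 stromal markers, 1 was at 0 in the d/d stroma. Col1a1, a fibrillar collagen gene of fibroblasts that no panel held, was in the epithelium gate at 10.4% of its stromal level in f/f and at 8.74% in d/d. The gates left 44.8% of f/f and 47.9% of d/d cells unassigned, so the classes are the cells with the clearest markers.

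All 6 genes lie on the minus strand (GRCm38, GENCODE M21, matched by gene identifier). Col6a1 (chr10:76708792-76726168) and Col6a2 (chr10:76595762-76623630) are neighbours 85161 bases apart, Col6a3 stands alone (chr1:90765923-90843971), and Col6a6 (chr9:105687809-105828160), Col6a5 (chr9:105856078-105960643) and Col6a4 (chr9:105989454-106096783) follow each other with gaps of 27917 and 28810 bases. The promoter windows of this trio are shown because the 3 genes are neighbours that encode the α3-like chains and include Col6a4. Each runs from 250 bases before to 50 bases after the RefSeq start on GRCm38.p6, minus strand, 5′ to 3′, and capitals mark the GC box (GGGCGG) and the CCAAT box (CCAAT), searched on both strands. The windows are chr9:106096642-106096941 for Col6a4, chr9:105960594-105960893 for Col6a5 and chr9:105828036-105828335 for Col6a6.
Col6a4: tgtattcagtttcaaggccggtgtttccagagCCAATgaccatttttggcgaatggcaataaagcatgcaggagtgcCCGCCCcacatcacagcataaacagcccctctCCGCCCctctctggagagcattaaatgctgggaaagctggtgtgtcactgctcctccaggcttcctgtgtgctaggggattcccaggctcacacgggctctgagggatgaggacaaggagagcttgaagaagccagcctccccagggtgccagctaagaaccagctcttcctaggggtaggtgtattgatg
Col6a5: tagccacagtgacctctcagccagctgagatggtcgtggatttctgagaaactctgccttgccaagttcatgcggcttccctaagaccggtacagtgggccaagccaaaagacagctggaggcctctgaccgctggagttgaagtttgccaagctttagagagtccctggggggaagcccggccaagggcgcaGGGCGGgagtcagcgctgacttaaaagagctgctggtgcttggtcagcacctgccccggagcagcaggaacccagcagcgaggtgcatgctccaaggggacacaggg
Col6a6: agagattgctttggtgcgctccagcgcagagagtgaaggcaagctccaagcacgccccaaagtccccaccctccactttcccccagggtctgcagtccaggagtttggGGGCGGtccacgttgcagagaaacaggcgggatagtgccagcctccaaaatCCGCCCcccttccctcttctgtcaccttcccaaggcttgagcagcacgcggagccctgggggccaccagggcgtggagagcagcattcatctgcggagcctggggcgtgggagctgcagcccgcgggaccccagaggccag

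The Col6a4 window held 1 CCAAT box and 2 GC boxes, the Col6a5 window 1 GC box, and the Col6a6 window 2 GC boxes. Among the 32851 RefSeq promoter windows of the same length, 37.4% held a CCAAT box and 35.7% a GC box, so neither is rare. No match was found in these 3 windows to the TATA box (TATAAA), the AP-1 site (TGANTCA), the E-box (CACGTG), the full palindrome of the estrogen response element or that of the progesterone and glucocorticoid response element. Those occurred in 13.6%, 7.81%, 7.15%, 0.07% and 0.00913% of all windows. Guanine and cytosine made up 55% of the Col6a4 window, 60% of the Col6a5 window and 65% of the Col6a6 window, against a median of 52.7% over all windows. These letters describe the windows, and the counts below do not bear on whether any factor binds there.

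Across the 6 gated classes with at least 50 cells over both libraries, the stroma was the main site of collagen VI counts. Col6a1, which encodes an obligatory chain, had 883 UMIs in the f/f stroma and 231 in the d/d stroma, or 1321 CPM (1235 to 1411) and 1883 CPM (1648 to 2142). In f/f the other classes were, from high to low, smooth muscle (1034 CPM), mesothelium (867), endothelium (257), myeloid cells (214) and epithelium (124). Neighbours in this order had overlapping intervals, except mesothelium and endothelium. In d/d the order was the same, with 1128 CPM in smooth muscle, 829 in mesothelium, 461 in endothelium, 381 in myeloid cells and 141 in epithelium, and neighbours again overlapped, except myeloid cells and epithelium.

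Col6a2, for the partner chain α2, had 1175 and 230 UMIs in the stroma, or 1757 CPM (1658 to 1861) in f/f and 1875 CPM (1641 to 2134) in d/d. Smooth muscle was at 919 and 611 CPM, mesothelium at 879 and 1197 CPM, myeloid cells at 506 and 495 CPM, and endothelium at 355 and 434 CPM. Epithelium was lowest at 153 and 179 CPM. The stroma had the highest value of these classes for both obligatory chains in both libraries. For Col6a2 the stromal interval was clear of those of the other classes described.

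Col6a3, for the classical partner of that pair, had 117 and 37 UMIs in the stroma (175 CPM, 145 to 210, and 302 CPM, 212 to 416). Smooth muscle gave 13 and 6 UMIs (249 and 282 CPM), with intervals that overlapped those of the stroma in both libraries. Endothelium gave 14 and 3 UMIs, mesothelium 6 and 2, and myeloid cells 5 and 0. Epithelium gave 40 and 19 UMIs, at 18.4 and 27.9 CPM. Levels of different chains are not ranked against each other here, because in a probe-based assay the probe sets differ between genes. Ratios and shares within the family are given below only to set the libraries side by side.

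Col6a4 was at 378 UMIs in the 613 f/f stroma-gated cells and at 287 UMIs in the 127 d/d cells, or 565 CPM (510 to 625) and 2340 CPM (2077 to 2627). Smooth muscle came next, with 21 and 37 UMIs (402 and 1739 CPM), and its interval overlapped that of the stroma in both libraries. Myeloid cells had 14 and 19 UMIs (273 and 723 CPM), endothelium 37 and 36 UMIs (226 and 977 CPM), and mesothelium 10 and 14 UMIs (126 and 430 CPM). Epithelium had 115 and 170 UMIs, at 53.0 CPM (43.8 to 63.6) and 249 CPM (213 to 290). Of these 6 classes the stroma had the highest and the epithelium the lowest value in both libraries. The epithelial interval overlapped that of mesothelium. The pericyte gate, too small to be a class here (18 and 3 cells), was higher than the stroma, at 2640 and 5780 CPM. The d/d value was above the f/f value in each of the 6 classes.

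Col6a6 had 39 UMIs in the f/f stroma and 22 in the d/d stroma (58.3 CPM, 41.5 to 79.7, and 179 CPM, 112 to 272). Outside the stroma it had 15 and 11 UMIs in epithelium and no more than 2 in any library of the other 4 classes. Col6a5 was close to the limit of detection. It had 5 and 3 UMIs in the stroma and 14 and 7 UMIs over all cells, so no ratio in stroma is given for it.

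**Figure D1:**
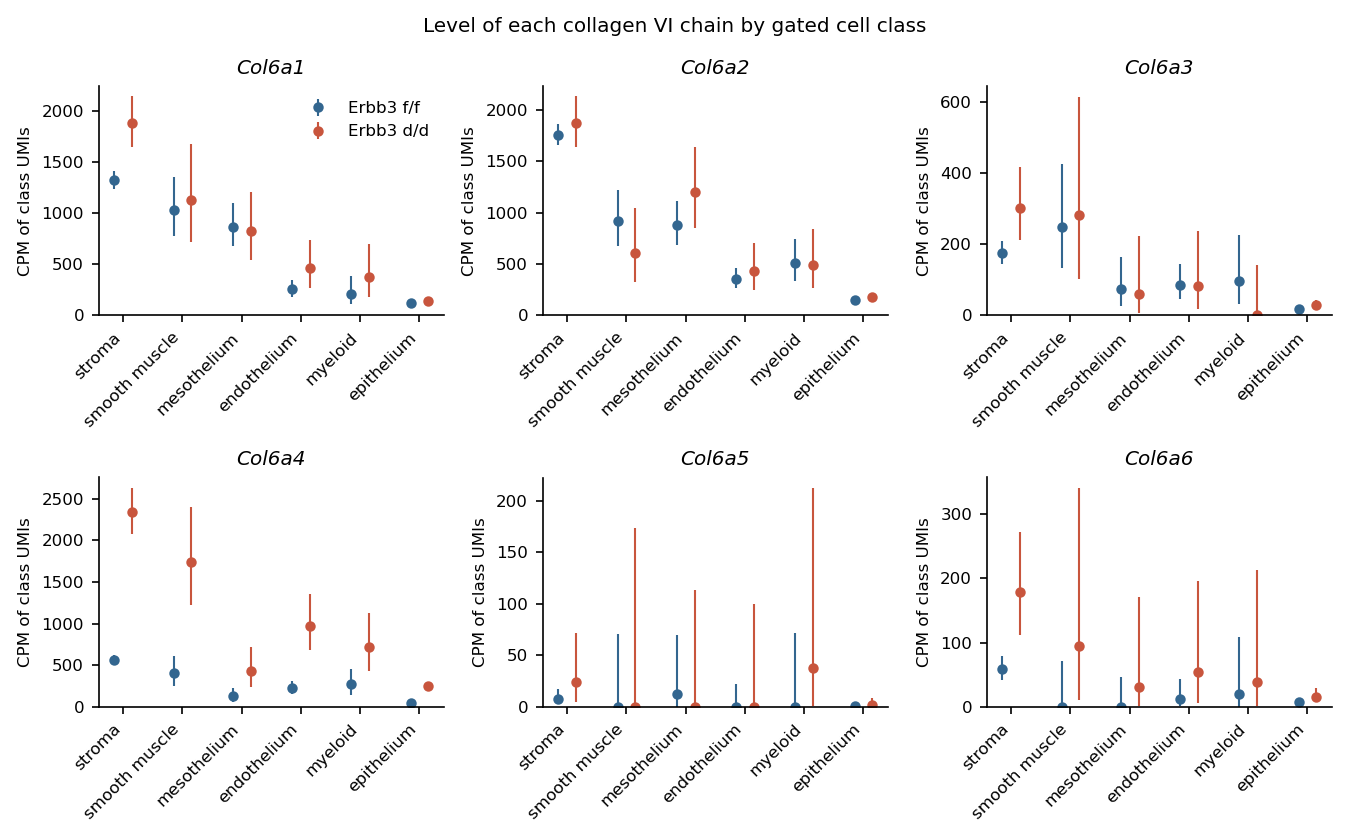
Level of each collagen VI chain (CPM of class UMIs, linear axes that differ between panels) in the 6 gated classes, with 1 point per library and bars for the 95% Poisson interval of its UMIs. Stroma is the highest class for Col6a1 and Col6a2, and the d/d point of Col6a4 lies above the f/f point in each class, at 2340 against 565 CPM in stroma.

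In stroma-gated cells the chains differed in how far the 2 libraries were apart. Col6a4 was 4.14-fold higher in d/d (3.54 to 4.84), a log2 ratio of 2.05 (1.82 to 2.27), the highest of the 2245 genes with at least 100 UMIs in stroma. The median of those genes was -0.11 and their standard deviation 0.51. Of them, 1.2% were past a log2 ratio of 1 and higher in d/d, and 4.41% were past it and lower. Col6a4 was the only chain past it among the 4 with 100 UMIs, which is what it was chosen for. Among the 7977 genes with at least 20 UMIs in stroma, Col6a4 had rank 18.

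Col6a1 had a log2 ratio of 0.51 (0.30 to 0.72), rank 205 of 2245. Col6a2 was nearly level between the libraries at 0.09 (-0.12 to 0.30), and its interval held 0. Col6a3 was at 0.79 (0.21 to 1.33). Col6a6, with fewer than 100 UMIs, was at 1.62 (0.80 to 2.41), rank 78 of the 7977 genes with at least 20 UMIs, of which 5.11% were past 1 and higher in d/d. Its interval reached below 1. With cells thinned to 500 UMIs it was 1.65 (0.60 to 2.65) in 1 random draw and 0.85 (-0.44 to 2.0) in a second. The interval of Col6a3 overlapped those of Col6a1 and Col6a2, so these intervals do not place Col6a3 relative to them. Col6a2 and Col6a1 are compared directly below, as Col6a2 per Col6a1 UMI.

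**Figure D2:**
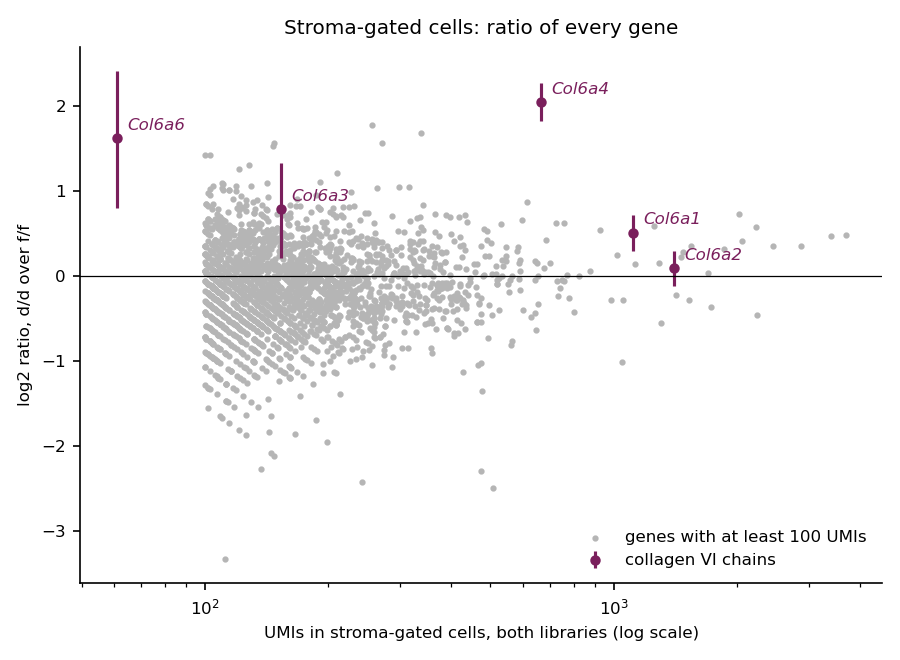
Ratio between the libraries (log2, d/d relative to f/f, vertical axis) in stroma-gated cells against the UMIs of both libraries together (log axis) for each gene with at least 100 UMIs (grey) and for 5 collagen VI chains (purple, bars for the 95% counting interval). Col6a4 lies above all grey points at 2.05, Col6a6 is shown although it has fewer than 100 UMIs, and Col6a5 has too few to be drawn.

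A ratio taken within the family does not depend on how the class totals were scaled. In the stroma the f/f library had 42.8 Col6a4 UMIs per 100 Col6a1 UMIs and the d/d library 124, a log2 difference of 1.54 (1.23 to 1.84). Col6a6 per Col6a1 was higher in d/d by 1.11 (0.33 to 1.89), with 4.42 and 9.52 per 100. Col6a3 per Col6a1 was at 0.27 (-0.30 to 0.85). Col6a2 per Col6a1 was at -0.42 (-0.71 to -0.13), with 133 and 99.6 UMIs per 100. That value was smaller and its interval held 0 with a gate of 3 markers (-0.16, -0.59 to 0.27), with a gate lead of 4 times (-0.24, -0.65 to 0.17) and in Leiden classes (-0.14, -0.37 to 0.09). In epithelium it was 0.04 (-0.41 to 0.49) and in mesothelium 0.51 (-0.35 to 1.36).

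The summed family was at 3884 CPM in the f/f stroma and 6604 CPM in the d/d stroma. Col6a4 made up 14.6% (13.2 to 16.0) of the 2597 family UMIs in f/f and 35.4% (32.1 to 38.8) of the 810 in d/d. Col6a2 made up 45.2% and 28.4%, and Col6a1 34.0% and 28.5%. Col6a3 was at 4.51% and 4.57%. These are shares of UMIs and not of protein chains. A rise in the share of any chain lowers the shares of the others, and Col6a2 itself was at 1757 and 1875 CPM.

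A larger share of d/d stromal cells had Col6a4, and those that had it held more UMIs of it. The share of stroma-gated cells with at least 1 Col6a4 UMI was 34.3% in f/f and 65.4% in d/d. After every cell was thinned to 500 UMIs, which left out 3 f/f cells and 0 d/d cells below that depth, the shares were 20.7% (17.5 to 24.1) and 51.2% (42.2 to 60.1), 30.5 percentage points apart (20.9 to 40.0). These come from 1 random draw of the thinning, and the shares expected over all draws were 21.8% and 55.5%. In epithelium-gated cells, taken as a class that should lack interstitial matrix transcripts, the unthinned shares were 5.24% and 14.3% and the thinned shares were 2.52% and 8.76%, with median depths of 939 and 923 UMIs before thinning against 832 and 756 in stroma.

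Thinned cells with the transcript held means of 1.29 (f/f) and 2.22 (d/d) Col6a4 UMIs. Cells with 5 or more made up 3.94% of d/d cells, and none of the 610 f/f cells reached 5 after thinning. In the counts as deposited the highest f/f cell had 15 UMIs and the highest d/d cell 19, and the 10% of cells with the most held 55.3% and 41.1% of all Col6a4 UMIs.

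**Figure D3:**
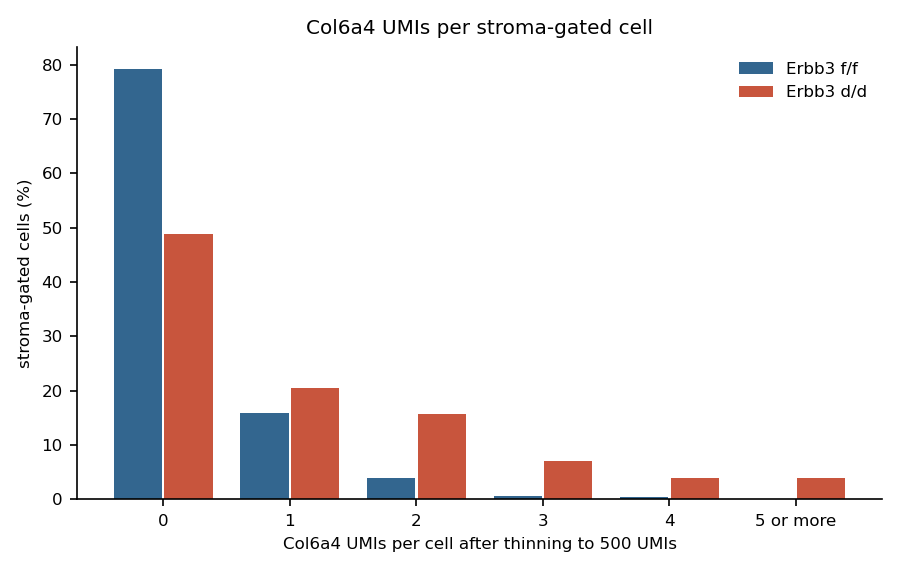
Share of stroma-gated cells (%, bars from 0) by their number of Col6a4 UMIs after thinning to 500 UMIs, for 610 f/f and 127 d/d cells. The f/f cells are at 79.3% in the class with 0 UMIs and the d/d cells at 48.8%, and each class from 1 UMI up holds a larger share of d/d cells.

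The other chains were compared between cells with and without Col6a4 in the thinned stroma. Col6a3 had a UMI in 23.1% (13.5 to 35.2) of the 65 d/d cells with Col6a4 and in 6.45% (1.79 to 15.7) of the 62 without. In f/f it had a UMI in 7.14% of the 126 cells with and in 9.09% of the 484 without. Col6a1 was found in 56.9% and 51.6% of these d/d cells and in 47.6% and 49.6% of the f/f cells. Col6a6 was found in 10.8% and 9.68% of the d/d cells. The intervals with and without Col6a4 overlapped for each of these chains in both libraries, Col6a3 in d/d included, and the shares come from 1 draw of the thinning.

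The ratio was present in each stromal subtype. Subtypes were gated on Pth1r, the parathyroid hormone receptor gene, and Scube1, which encodes a secreted and membrane-bound glycoprotein, against Adam12, a metalloprotease gene, all taken from earlier results of these data. In cells with Pth1r or Scube1 alone (243 f/f, 33 d/d), Col6a4 was at 584 and 2238 CPM, a log2 ratio of 1.94 (1.48 to 2.38), with 8.5% of genes with at least 20 UMIs past 1 and higher in d/d. In cells with Adam12 alone (67 and 16) it was at 580 and 2209 CPM, or 1.93 (1.20 to 2.65), with 7.79% of genes past 1. In cells with both (148 and 30) it was at 600 and 3092 CPM, or 2.37 (2.02 to 2.71), with 5.43% of genes past 1. In cells with neither (155 and 48) it was at 452 and 1621 CPM, or 1.84 (1.29 to 2.40), with 5.65% of genes past 1. The 4 intervals overlapped. In the f/f library the 3 subtypes with a marker were within 580 to 600 CPM of each other.

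The mix of subtypes was not the same, since cells with neither marker were 25.3% of the f/f and 37.8% of the d/d stroma. With the d/d subtypes weighted to the f/f mix the log2 ratio of Col6a4 was 2.11. Col6a3, Col6a5 and Col6a6 had no more than 16 d/d UMIs in any subtype. Col6a1 was at 0.81 (0.40 to 1.20) in the Pth1r or Scube1 cells, 0.60 (0.25 to 0.94) in cells with both, 0.43 (-0.04 to 0.88) in cells with neither, and -0.07 (-0.93 to 0.71) in the Adam12 cells. Col6a2 was at 0.21 (-0.20 to 0.59), 0.41 (0.08 to 0.73), -0.45 (-1.03 to 0.08) and 0.25 (-0.35 to 0.82) in the same order.

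Other measures also differed between the libraries in these cells. The median mitochondrial share of stroma-gated cells was 1.22% in f/f and 2.87% in d/d. In 5 bins of that share from 0 to 10%, the log2 ratio of Col6a4 was 1.89 (1.29 to 2.46), 3.08 (2.35 to 3.83), 1.65 (0.77 to 2.47), 2.07 (1.67 to 2.47) and 1.72 (1.29 to 2.15), and weighting d/d to the f/f mix of bins gave 2.0. The summed epithelial panel (9 markers) was at 248 CPM in the f/f stroma with 0 markers at 0, and at 334 CPM in the d/d stroma with 1 at 0. In stroma-gated cells with no UMI of any epithelial marker the log2 ratio was 2.29. The smooth muscle panel (6 markers) was at 408 CPM with 1 marker at 0 and 587 CPM with 0 at 0. The pericyte panel (6 markers) was at 92.7 CPM with 1 at 0 and 130 CPM with 3 at 0. The part of these muscle and pericyte markers in the stromal result was not tested, other than in the clusters described below.

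Col6a4 was also higher in d/d in the gated classes other than stroma. In epithelium-gated cells its log2 ratio was 2.23 (1.88 to 2.59), rank 5 of 6656 genes, where 4.25% of genes were past 1 and higher in d/d. It was 2.11 (1.41 to 2.81) in endothelium (5.25% of genes with at least 20 UMIs past 1), 2.11 (1.30 to 2.96) in smooth muscle (5.99%), 1.77 (0.50 to 3.11) in mesothelium (5.49%) and 1.41 (0.33 to 2.51) in myeloid cells (6.33%). Smooth muscle-gated cells in a cluster led by Myh11, described below, were at 588 CPM in f/f and 501 CPM in d/d. The other smooth muscle-gated cells were at 266 and 2483 CPM, and many of them lay in the cluster with most stroma-gated cells. Over all cells the log2 ratio of Col6a4 was 1.69 (1.58 to 1.81), at 226 and 729 CPM, with 3.16% of genes past 1. Of 324 genes with at least 20 UMIs in each of the 6 classes, 2 were past 1 and higher in d/d in every class (0.617%), Col6a4 and Igha, the heavy-chain gene of immunoglobulin A. Col6a4 was chosen by its ratio in stroma, which is among these classes, so that share is not a fair background for it.

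The obligatory chains were not higher in d/d over the whole libraries. Over all cells Col6a1 was at -0.08 (-0.19 to 0.03) and Col6a2 at -0.25 (-0.35 to -0.14), and Col6a3 was at 0.31 (0.03 to 0.57). Values over all cells depend on the mix of cells as well as on the level within a class. Stroma-gated cells were 11.1% of f/f and 6.94% of d/d cells, and in them Col6a1 was at 0.51 and Col6a2 at 0.09. In epithelium, endothelium, smooth muscle, mesothelium and myeloid cells the intervals of Col6a1 and Col6a2 held 0. Col6a6 over all cells had 112 and 76 UMIs, or 20.3 and 44.4 CPM, a log2 ratio of 1.13 (0.69 to 1.56). Per Col6a1 UMI, Col6a4 was higher in d/d by 2.05 (1.57 to 2.53) in epithelium and 1.99 (0.95 to 3.03) in smooth muscle, while the interval in myeloid cells, 0.58 (-1.01 to 2.17), held 0.

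**Figure D4:**
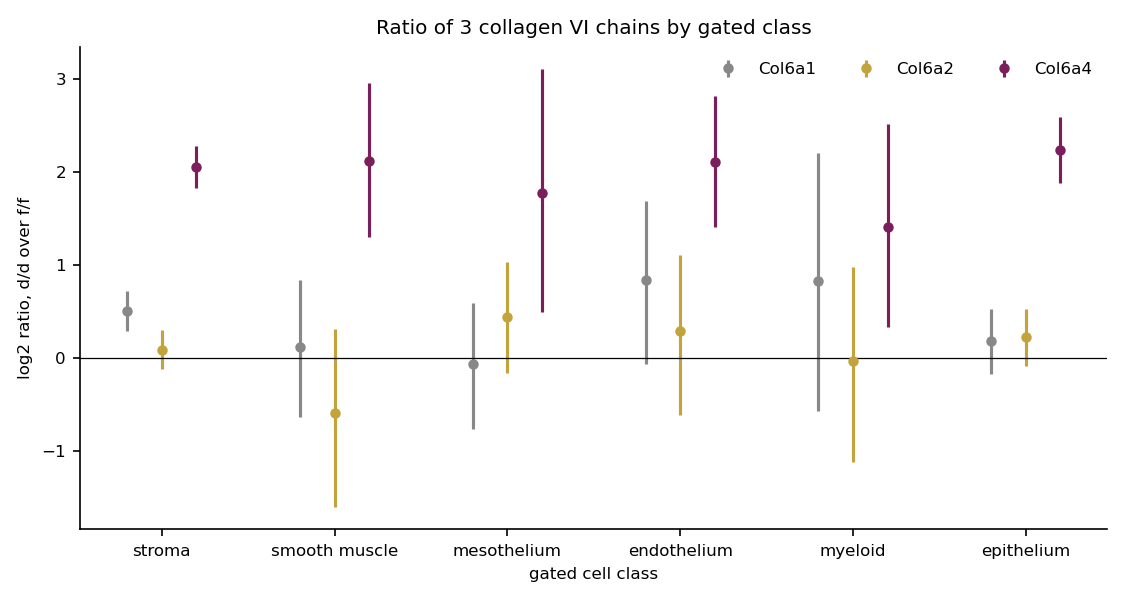
Ratio between the libraries (log2, d/d relative to f/f, vertical axis) for Col6a1, Col6a2 and Col6a4 in the 6 gated classes, with 95% counting intervals. The Col6a4 points lie between 1.41 and 2.23 with intervals above 0, and outside the stroma the intervals of the other 2 chains hold 0. The intervals treat each UMI as independent, and the 14 f/f and 19 d/d Col6a4 UMIs of myeloid cells came from 6 cells in each library.

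In epithelium-gated cells each of the 5 chains with enough counts was at 7.48% to 11.9% of its own stromal level. The values were 9.39%, 8.71%, 10.5%, 9.38% and 11.9% for Col6a1, Col6a2, Col6a3, Col6a4 and Col6a6 in f/f, and 7.48%, 9.55%, 9.24%, 10.7% and 9.0% in d/d. Matrix genes outside the family had a median of 10.3% in f/f (14 genes, 2.33% to 31.7%) and 10.2% in d/d (8 genes, 8.53% to 15.3%). Col6a4 in epithelium, relative to its own stromal level, was near these medians in both libraries. In endothelium the corresponding values for Col6a4 were 40.0% and 41.7%, against medians of 32.0% and 39.2% for the matrix genes outside the family and of 20.96% and 27.0% over the 5 chains, of which Col6a3 was at 48.9% and 27.0%. The part of free RNA or of cells that stuck together in these levels was not tested.

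The 12 Leiden clusters, built without the collagen VI genes, held 1 cluster in which the Col6a4 levels of the libraries were close. The cluster led by Myh11, Tpm2, Smtn and Cald1, genes of the contractile apparatus, with Col6a4 itself in the fifth place, held 87 f/f and 20 d/d cells. Col6a4 had 165 UMIs there in f/f and 29 in d/d, or 1983 CPM (1692 to 2310) and 1926 CPM (1290 to 2766), and the log2 ratio was -0.04 (-0.66 to 0.53). The cluster held 15 pericyte-gated f/f cells with 41 of these UMIs and 1 pericyte-gated d/d cell with 3, and without them the ratio was 0.06 (-0.61 to 0.68). The f/f level of 1983 CPM was the highest of any cluster. Over the whole cluster Col6a1 was at 937 and 930 CPM, and Col6a6 had 0 UMIs in both libraries. Col6a3 had 38 and 4 UMIs there, or 457 CPM (323 to 627) and 266 CPM (72.4 to 680). In f/f that was the highest Col6a3 level of any cluster, and in d/d it was not.

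In the cluster with most stroma-gated cells, led by Cpxm2 (1169 f/f and 211 d/d cells), Col6a4 was at 572 CPM (525 to 622) and 3295 CPM (3017 to 3591), a log2 ratio of 2.53 (2.35 to 2.70). The intervals of the ratio in this cluster and in the Myh11 cluster did not overlap. Of the 12 clusters, 9 had a ratio past 1 with an interval above 0. Over all pairs of a gene and a cluster with at least 20 UMIs, 6.58% were past 1 and higher in d/d. The others besides the Myh11 cluster were one led by Syn2 and Tmc7, with 29 and 3 UMIs (0.91, -1.45 to 2.59), and one led by Slc51a, in which 12 d/d cells gave 0 UMIs against 27 UMIs in 1036 f/f cells.

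**Figure D5:**
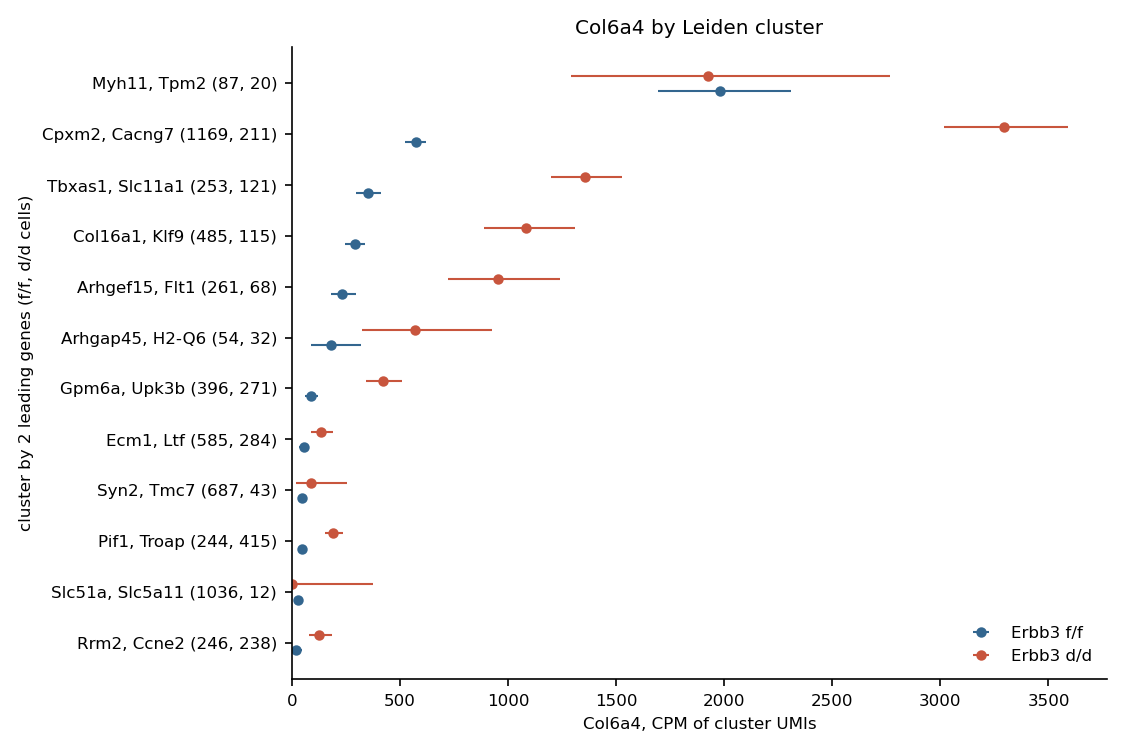
Col6a4 level (CPM of cluster UMIs, linear axis) in 12 Leiden clusters named by 2 leading genes, with the f/f and d/d cell numbers in brackets, 1 point per library and bars for the 95% Poisson interval. The points of the Myh11 cluster coincide near 1983 and 1926 CPM, while those of the Cpxm2 cluster are at 572 and 3295 CPM.

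The smooth muscle gate was split by that cluster, a division made after its values were seen. Gated smooth muscle cells inside the Myh11 cluster (25 f/f, 9 d/d) had 13 and 4 Col6a4 UMIs, or 588 and 501 CPM. Those in other clusters (35 and 12) had 8 and 33 UMIs, or 266 and 2483 CPM. Of these, 22 f/f and 6 d/d cells lay in the Cpxm2 cluster, which held most of the stroma-gated cells. The pericyte gate, which is too small to be described as a class, had 43 UMIs in 18 f/f cells, or 2640 CPM (1910 to 3556), of which 41 were in 15 cells of the Myh11 cluster, and 12 UMIs in 3 d/d cells, or 5780 CPM (2987 to 10097), of which 9 were outside that cluster. Pericytes wrap capillaries and share contractile genes with smooth muscle.

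Within the stroma-gated cells, 5 Leiden clusters built without the collagen VI genes had Col6a4 log2 ratios of 2.97 (2.55 to 3.38), 1.49 (0.70 to 2.27), 1.87 (1.53 to 2.21), 2.93 (1.24 to 5.0) and 1.84 (1.09 to 2.55). The first, led by Htt, Apcdd1 and Arhgap28, held 271 f/f and 34 d/d cells, with Col6a4 at 501 and 3920 CPM and median mitochondrial shares of 0.394% and 0.596%. The third, led by Igha, Igkc and mitochondrial genes, held 214 and 48 cells, with 738 and 2705 CPM and mitochondrial shares of 3.35% and 5.10%. Weighting d/d to the f/f mix of these clusters gave 2.27.

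Among genes with at least 100 UMIs, those nearest to Col6a4 were not matrix genes. In the stroma the next highest ratios were those of Cxcl14, a chemokine gene, at 1.78, Igkc, an immunoglobulin light-chain gene, at 1.69, Igha at 1.57 and Gpatch11 at 1.56. In epithelium these were at 1.96, 0.76, 1.25 and -0.06. Below 100 UMIs in stroma, the matrix gene Lum (1.63) and Col6a6 (1.62) also had ratios above that of Igha. Many other genes did too, since Col6a6 had rank 78 of the 7977 genes with at least 20 UMIs. Over the 12 sums of 6 classes in 2 libraries, the genes whose log2(CPM + 1) followed Col6a4 most closely among 9740 genes were Igha (r = 0.94), the mitochondrial gene mt-Nd6 (0.85), Rpf2 (0.83), Tnfsf12 (0.82) and Cxcl14 (0.82). Col6a6 reached 0.71, Col6a1 0.66, Col6a2 0.56 and Col6a3 0.28. Col6a3 was followed most closely by Rem1 (0.97), P3h3 (0.96), Peli2 (0.95), Col16a1 (0.94) and Cct6a (0.94). The 12 points share their libraries and depths, so these coefficients are descriptions without a test.

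Genes that act with collagen VI were taken as lists. Of 11 receptors, 2 had at least 100 UMIs in the stroma, and neither was past a log2 ratio of 1. Antxr1 and Antxr2, the anthrax toxin receptors, of which Antxr2 takes up collagen VI, were at -0.16 (-0.52 to 0.17) and -0.17 (-0.74 to 0.37). Of 18 enzymes and chaperones of collagen processing, 12 were counted, with 2 ratios above 0, 10 below 0 and a median of -0.35, while 60.1% of all 2245 genes were below 0 and their median was -0.11. Serpinh1, the collagen chaperone of the endoplasmic reticulum, had 959 and 87 UMIs (1434 and 709 CPM) and was the only one past 1, at -1.02 (-1.35 to -0.70), against 4.41% of all 2245 genes past 1 and lower in d/d. Mmp2, a gelatinase gene, was at 0.42 (0.14 to 0.69).

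Of 19 matrix partners, 13 were counted, with 7 ratios above 0, 6 below 0 and a median of 0.05, while 39.9% of all genes were above 0. Dcn, for decorin, a small proteoglycan that binds collagen VI, had 102 and 40 UMIs (153 and 326 CPM) and was the only one past 1, at 1.10 (0.53 to 1.64), against 1.2% of all genes past 1 and higher in d/d. It is also a marker in the stromal gate, as is Lum. With 53 and 30 UMIs in stroma Lum was not counted, and its ratio was 1.63 (0.93 to 2.30). The fibrillar collagen genes Col1a1 and Col3a1 were at 0.32 (0.15 to 0.49) and -0.46 (-0.65 to -0.27). Fn1, for fibronectin, was at -0.55 (-0.81 to -0.30).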

How the data were processed

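Single-cell UMI counts of endometrium from 1 Erbb3 f/f and 1 Erbb3 d/d library were used. The deposited matrices hold raw counts per gene and barcode. Per the file headers, the authors made them with Cell Ranger 9.0.0. The submitters' processing notes list the builds mm10 and GRCm39 without a role, so the GRCm38 coordinates given were matched by gene identifier and may not be those of the authors' probe annotation.

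Barcodes with at least 200 genes and at most 10% mitochondrial UMIs were kept (0 failed the first limit, 280 f/f and 295 d/d the second). A cell joined the class of the marker panel with the most UMIs (9 panels) if at least 2 different markers were present and the panel led every other by 2 times. Cells with 2 or more markers of both the stromal and the epithelial panel that met no class were set apart as mixed. No doublet caller was applied in the main analysis. Counts were summed per class and library and divided by the class total. Intervals are exact Poisson (levels), exact Clopper-Pearson (shares) and exact conditional binomial (ratios) at 95%. The interval of a ratio within the family is normal on the log scale. Intervals of levels and ratios treat each UMI as independent and do not cover the spread between cells. A gene was called past a log2 ratio of 1 if at least 100 UMIs (20 where stated) were present. No test was run, since there is 1 library per genotype.

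Named genes were all 6 chains, partner-list members past that ratio or otherwise the 1 or 2 with the most UMIs, and Lum. Also named were the 5 genes most correlated with Col6a4 and Col6a3 and the 5 highest ratios in stroma, with at least 100 UMIs. The members, lists and gates were chosen with earlier results of these data known. Alternatives covered cell filters, doublet scores, gates, Leiden classes (scanpy 1.11.5, leidenalg 0.10.2), TMM (edgeR 4.0.16) and median-of-ratios scaling, and thinning. The ratio code was checked on simulated data.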

Additional observations from a re-analysis of the deposited data

Results flagged for a closer look

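Barcodes above the mitochondrial limit of 10% were left out of the main comparisons, and 29 f/f and 22 d/d of them met the stromal gate. In these d/d barcodes Col6a4 was at 3654 CPM (2973 to 4444, 100 UMIs), against 707 CPM (528 to 927, 52 UMIs) in the f/f ones, a log2 ratio of 2.37 (1.87 to 2.88). The value drew attention as a signal above the control in data that the main comparisons left out. The alternative with no limit on the mitochondrial share included these barcodes and gave a log2 ratio of 2.15 for Col6a4 in stroma. In the same barcodes Col6a2 was at 2302 CPM in d/d and 1223 CPM in f/f, a log2 ratio of 0.91 (0.42 to 1.39), and Col6a1 at 1717 and 1142 CPM, or 0.59 (0.04 to 1.12). Col6a3 was at 110 and 177 CPM, from 3 and 13 UMIs.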

How the results depend on the processing

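Of 114 alternative values for 8 results, 108 stayed inside the counting interval of the value reported, 6 moved outside it and 0 reversed. A reversal was counted only where the value reported was past 1. The ratios of Col6a1, Col6a2, Col6a3 and Col6a2 per Col6a1 UMI therefore could not count as reversed. Col6a2 (0.09) was at -0.01 in cells thinned to 500 UMIs. Ratios per Col6a1 UMI cannot move with the scaling, so those alternatives were bound to stay the same. The log2 ratio of Col6a4 in stroma (2.05) was 2.41 with a gate lead of 4 times, 2.29 in cells with no epithelial marker UMI, 2.53 in Leiden classes, and 2.28 without the 10% of cells highest in Col6a4, an alternative chosen after seeing the data. Col6a4 per Col6a1 UMI (1.54) was 1.90 with the lead of 4 times and 2.10 in Leiden classes. Ranges were 1.99 to 2.53 for Col6a4, 0.38 to 0.72 for Col6a1, -0.01 to 0.30 for Col6a2, 0.55 to 1.23 for Col6a3 and 0.85 to 2.32 for Col6a6. Leaving out barcodes that share their first 16 bases, also chosen after seeing the data, gave 2.08 for Col6a4. The interval of Col6a3 held 0 with at most 5% mitochondrial UMIs (0.55, -0.19 to 1.23) and in thinned cells (0.70, -0.11 to 1.46; 1.23, 0.45 to 1.98 in a second draw), that of Col6a6 in the second draw only, and that of Col6a2 was above 0 in 4 of 14 alternatives. The second draw, and the alternatives for Col6a2 per Col6a1 UMI (-0.56 to -0.14), were also chosen after seeing the data. The share of cells with Col6a4 was 29.5 to 33.6 points higher in d/d. The causes were not tested. TMM shifted log2 ratios by -0.05, as did median-of-ratios scaling. No paired analysis was possible because there is 1 library per genotype. For the same reason no replicate could be left out. With 127 d/d stromal cells, depth limits Col6a3, Col6a5 and Col6a6 most.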

Other observations

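In the 123 f/f and 42 d/d cells that carried markers of both stroma and epithelium and met no class, Col6a4 had 92 and 81 UMIs, or 367 and 985 CPM, a log2 ratio of 1.42 (0.97 to 1.87). Col6a1 was at 691 and 730 CPM and Col6a2 at 891 and 827 CPM in these cells. In the unassigned cells (2465 f/f, 876 d/d) Col6a4 had 535 and 592 UMIs, or 259 and 840 CPM, a log2 ratio of 1.70 (1.53 to 1.87). Col6a1 and Col6a2 were lower in d/d there, at -0.30 (-0.46 to -0.14) and -0.37 (-0.53 to -0.21), while Col6a3 was at 0.42 (0.02 to 0.80) and Col6a6 at 0.97 (0.27 to 1.64). The unassigned cells differed in their mix, with 655 of the f/f and 117 of the d/d cells in the Cpxm2 cluster. Over that whole cluster Col6a1 was at 0.42 (0.25 to 0.59) and Col6a2 at 0.29 (0.13 to 0.45). The part of the mix in the lower values was not tested.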
